A study of Mus musculus with 6 samples.

Results

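The genes of the cytosolic ribosomal proteins were followed on microarrays of whole embryonic mouse brains that carried a Foxf2 mutation or were wild type. Members were chosen by gene symbol alone, as every probe set annotated to exactly 1 gene whose symbol begins with Rpl or Rps followed by a number and at most a short suffix, or is Rpsa, Rplp0, Rplp1 or Rplp2. This gave 105 of the 45101 probe sets on the array and 49 of 18193 singly named genes. Of these genes, 26 encode proteins of the large subunit (48 probe sets) and 23 proteins of the small subunit (57 probe sets). A further 110 probe sets were annotated to several genes with a ribosomal protein among them, often beside a pseudogene of it, and fall outside the rule. Rplp1, Rpl3, Rpl5, Rpl10, Rpl10l, Rpl24 and Rps27a had no singly annotated probe set and are not analysed here.

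The 2 groups were 3 Foxf2 mutant and 3 wild-type whole brains of E18.5 embryos, both on a C57/bl6 background, with total RNA of 1 sample on each of 6 Affymetrix arrays. The labels do not describe the mutant allele, its zygosity, or whether an array held 1 embryo or several. The p-values therefore rest on the spread among these 6 samples, part of which may be technical. Values are intensities that the authors had scaled to a common trimmed mean of 100. They were compared as log2(intensity + 16), mutant minus wild type, with limma and Benjamini-Hochberg adjustment over the 27022 probe sets above a filter on dim signals (a mean of about 13.2). A difference was called at an adjusted p below 0.05.

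Foxf2 itself, on its brighter probe set, read 8.061, 3.315 and 7.57 in mutant brains, against 18.62, 24.44 and 13.8 in wild-type brains. The groups did not overlap, but the probe set lay below the filter, and the exact two-sided permutation p of 0.1 is the smallest that 3 arrays against 3 can give. Median intensities were 24.4 to 25.6 on mutant and 23.2 to 23.7 on wild-type arrays. The neuronal marker list, checked against the tissue label, had 14 tested probe sets of 9 genes with log2 differences of -0.27 to 0.36 (median 0.05). Of these, 0 were called by limma, and 3 read higher and 1 lower at p under 0.05 without adjustment. Single arrays held signal of other tissues: the skeletal muscle gene Acta1 read 741.2 on mutant array 3 and at most 77.0 elsewhere, and the growth hormone gene Gh read 1592 on wild-type array 3 and at most 203.2 elsewhere. Of the marker lists for other cell types, the pericyte list had 0 of 10 tested probe sets above 0 (median log2 difference -0.24) and the microglial list 9 of 9 (median 0.17), with 0 called in either by limma. An unadjusted p under 0.05 was reached by 2 pericyte probe sets that read lower and 2 microglial ones that read higher. The medians were -0.20 over 4 endothelial, -0.11 over 7 dividing-cell, 0.11 over 13 radial glial and astrocytic, and 0.16 over 4 liver probe sets, with 0 called by limma. Without adjustment, p under 0.05 was reached by 2 endothelial probe sets (both lower), 3 dividing-cell ones (1 higher, 2 lower), 4 glial ones (3 higher, 1 lower) and 2 liver ones (both higher). The part of these markers in the results on ribosomal protein genes was not tested.

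Ribosomes translate every messenger RNA of a cell. The small subunit reads the message, and the large subunit joins the amino acids. Each subunit is built on ribosomal RNA from many proteins, nearly all made from single-copy genes that are transcribed at high and coordinated levels and that have left numerous processed pseudogenes in the genome. Messenger RNAs of ribosomal proteins typically begin with a run of pyrimidines at the very 5′ end, through which the mTOR pathway controls their translation. In the growing brain, neural progenitors are known to depend on a high output of ribosomes.

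The start regions of 6 members are shown for this pyrimidine run. For each, 40 bases before and 20 bases from the annotated start are printed 5′ to 3′ on the gene's strand, from RefSeq on GRCm38.p6. Capitals mark the longest run of C and T that opens with a C within 10 bases of the start, where it holds at least 5 bases.
Rps10, chr17:27635225-27635284, minus strand: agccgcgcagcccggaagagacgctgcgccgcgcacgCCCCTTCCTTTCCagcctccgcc
Rps24, chr14:24490638-24490697, plus strand: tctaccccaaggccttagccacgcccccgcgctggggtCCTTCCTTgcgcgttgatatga
Rpl13a, chr7:45128726-45128785, minus strand: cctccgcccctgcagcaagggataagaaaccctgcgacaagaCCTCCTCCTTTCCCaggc
Rpl38, chr11:114668540-114668599, plus strand: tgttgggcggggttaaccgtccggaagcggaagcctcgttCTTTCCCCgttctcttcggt
Rps6, chr4:86857348-86857407, minus strand: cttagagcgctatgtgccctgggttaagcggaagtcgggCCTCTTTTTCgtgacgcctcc
Rpl37, chr15:5116573-5116632, plus strand: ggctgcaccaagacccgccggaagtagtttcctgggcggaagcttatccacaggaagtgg

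Promoters in the RefSeq table matched 43 of the 49 member genes (51 promoters). A pyrimidine run of at least 5 bases opened within 10 bases of the start in 54.9% of these promoters and in 30.7% of all 32851 promoters. For a run of at least 8 bases the shares were 33.3% and 8.11%. Some counted runs, as in Rpl10a and Rpl6, ended before the annotated start. The shares are therefore not those of a run at the very 5′ end of the message. Rpl37 had none in this window. The letters CGGAAG, the core bound by ETS factors, were searched on both strands of the whole 300-base promoters after the printed regions had been read, and were found in 60.8% of member promoters and in 16.9% of all promoters. TAAACA, a core of forkhead binding sites, was present on either strand in 4 of the 51 member promoters (7.84%) and in 13.4% of all promoters. TATAAA between 40 and 16 bases before the start was present in 1.96% and 1.99%. These matches describe the letters of the windows and do not show binding. Median GC content was 57.7% in member promoters and 52.7% in all promoters, and its part in the matches was not tested.

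Of the 105 member probe sets, 93 of 46 genes passed the filter. The other 12 read between 0.1962 and 14.96 on every array, and Rps16, Rpl3l and Rpl39l were represented by such dim probe sets alone. Of the 93, 1 was called higher in mutant brains and 0 lower, by limma, where 0.366% of all tested probe sets were called higher and 0.0222% lower. Without adjustment, 19 of the 93 read higher at p under 0.05 and 0 lower, against 7.76% and 5.79% of all tested probe sets. These counts were 12 and 5 after quantile normalization and 12 and 3 after median centring. They were 12 and 1 without mutant array 3 or without wild-type array 1, and 9 and 1 without wild-type array 2. In 28 every mutant array lay above every wild-type array and in 2 below, against 10.9% and 9.38%. The members' median log2 difference was 0.06, with quartiles of 0.00 and 0.13, and 70 of 93 lay above 0 (75.3%). Over all tested probe sets the median was -0.01 and 48.6% lay above 0. Median centring, which shifts all probe sets alike, gave medians of 0.01 for members and -0.06 for all tested probe sets, with 52.7% and 36.2% above 0, and left the gap between them at 0.07. Quantile normalization gave -0.01 and -0.02, with 39.8% and 45.4% above 0, a gap of 0.01. Fewer cells of a type and less RNA per cell cannot be told apart in whole-brain RNA, and a change in total RNA per brain is hidden by the scaling.

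**Figure D1:**
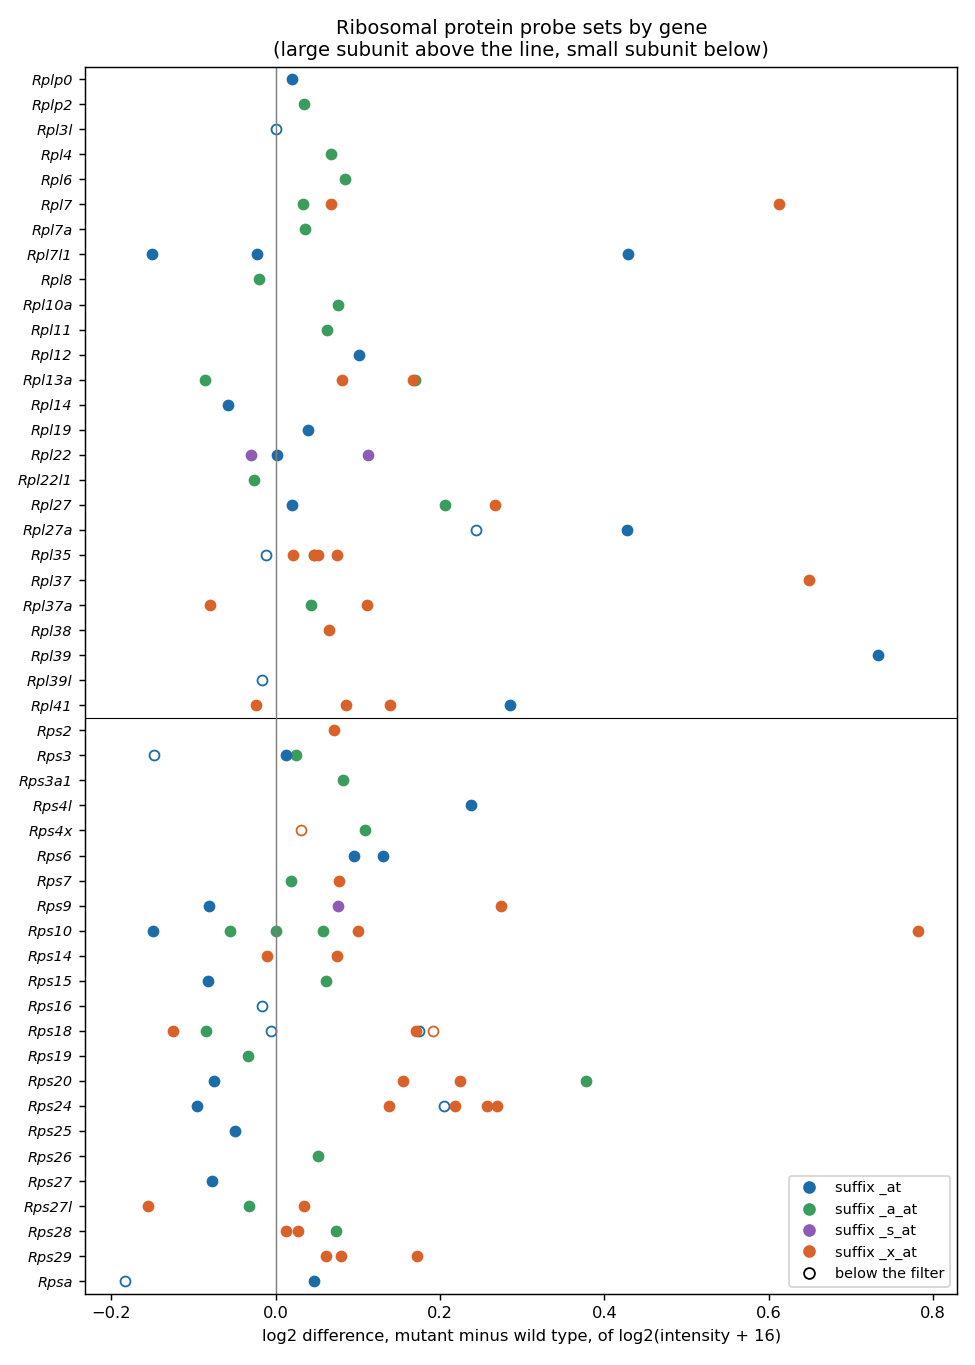
Log2 difference (mutant minus wild type, of log2 intensity + 16) of all 105 ribosomal protein probe sets, 1 row per gene, coloured by probe set suffix, with probe sets below the filter as open circles. Most points lie between -0.2 and 0.3, and 4 tested probe sets, of Rpl39, Rpl37, Rpl7 and Rps10, lie above 0.5. The slight shift to the right of 0 turned to a median of -0.01 under quantile normalization.

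The called probe set was Rps10 1439374_x_at. Rps10 encodes a protein of the small subunit that is mutated in some people with Diamond-Blackfan anaemia. This probe set read 619.6, 617.2 and 677.4 in mutant brains, against 318.2, 429.3 and 353.3 in wild-type brains. The lowest mutant array exceeded the highest wild-type array, with means of 638 ± 34.1 and 367 ± 56.8 (SD, n = 3 each). The log2 difference was 0.78 ± 0.10 (SE; 95% confidence interval 0.55 to 1.01), with a limma adjusted p of 0.0236. The call was lost in each of the 6 fits that left out 1 array, where the adjusted p lay between 0.0693 and 0.132. In those fits the log2 difference was 0.69 to 0.90.

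The other 5 probe sets of Rps10, all above the filter, did not move with it. Their log2 differences ran from -0.15 to 0.10, with a median of 0.00. The lowest was that of the dim 1436384_at, near the filter, with means of 15.57 in mutant and 19.05 in wild-type brains. Without this probe set the lowest was -0.06. The brightest, 1438723_a_at, read 4454, 4167 and 4596 in mutant brains and 4272, 3952 and 4485 in wild-type brains, with overlapping groups. Its log2 difference was 0.06 with a 95% confidence interval of -0.09 to 0.21, which does not reach the interval of the called probe set. On the other Rps10 probe set of suffix _x_at, 1456497_x_at, mutant arrays gave 3914, 3307 and 3649 and wild-type arrays 3341, 3373 and 3401. The log2 difference there was 0.10, and the groups overlapped. A rise of Rps10 was thus measured on 1 of its 6 probe sets.

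**Figure D2:**
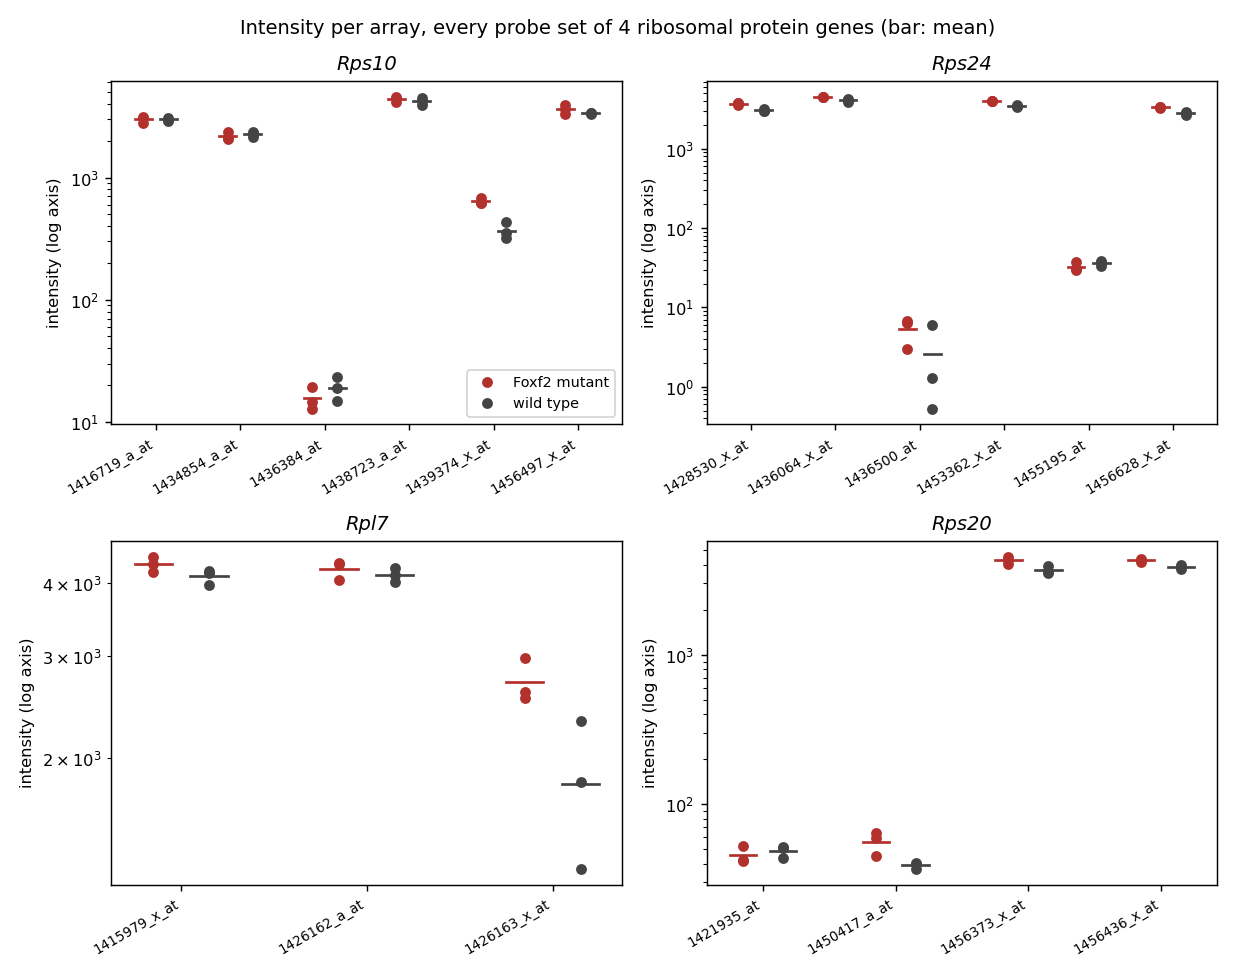
Intensity (log axis) of every probe set of Rps10, Rps24, Rpl7 and Rps20 on the 3 mutant arrays (red, left) and the 3 wild-type arrays (grey, right), with bars at the group means. In Rps10 and Rpl7 a single probe set separates clearly while the brighter ones nearly coincide; in Rps24 all 4 bright probe sets are higher in mutant brains.

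Rps24, another small subunit protein gene linked to Diamond-Blackfan anaemia in humans, had 4 bright probe sets that all read higher in mutant brains. It was singled out after its values were seen. On 1428530_x_at the mutant brains read 3563, 3786 and 3737 and the wild-type brains 3028, 2997 and 3166. On 1456628_x_at they read 3290, 3365 and 3378 in mutant brains, against 2657, 2829 and 2906 in wild-type brains. On 1453362_x_at the mutant values were 3968, 4046 and 4028 and the wild-type values 3423, 3351 and 3579. The fourth, 1436064_x_at, gave 4448, 4460 and 4529 in mutant brains and 3904, 4126 and 4184 in wild-type brains. In all 4 the groups did not overlap. Mutant arrays also lay wholly above wild-type ones in 42.6% of 115 non-member _x_at probe sets with a mean of 2000 or more. The log2 differences of the 4 Rps24 probe sets were 0.27, 0.26, 0.22 and 0.14, and none passed the threshold (limma adjusted p of 0.0876, 0.104, 0.133 and 0.312). After quantile normalization they were 0.18, 0.17, 0.14 and 0.07. All 4 carry the suffix _x_at and may read the same transcripts, so they are not independent of each other. The only other tested Rps24 probe set, 1455195_at, was dim, at 37.5, 29.9 and 30.2 in mutant brains and 32.9, 36.4 and 38.2 in wild-type brains (log2 difference -0.10).

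Rps20, whose mutation darkens the skin of mice, had a similar picture on 3 of 4 tested probe sets. Its 1456373_x_at read 4320, 4037 and 4509 in mutant brains, against 3569, 3534 and 3903 in wild-type brains (log2 difference 0.22, adjusted p = 0.196 by limma). Its 1456436_x_at had a log2 difference of 0.16 and the dim 1450417_a_at of 0.38, all without overlap between the groups. Mutant arrays lay wholly above wild-type ones in 10.9% of all tested probe sets and in 42.6% of non-member _x_at ones with a mean of 2000 or more. After quantile normalization the differences of 1456373_x_at, 1456436_x_at and 1450417_a_at were 0.13, 0.09 and 0.36. The remaining one, 1421935_at, had -0.08 with overlapping groups. Rps29, a short zinc-binding protein, had 7190 ± 230.4 in mutant brains and 6380 ± 197 in wild-type brains on 1438859_x_at (SD, n = 3 each; log2 difference 0.17, limma adjusted p = 0.232). That difference was 0.01 after quantile normalization. Its other probe sets had log2 differences of 0.06 and 0.08, which placed Rps29 among the genes with the narrowest spread over probe sets.

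Among large subunit genes 0 of 44 tested probe sets were called by limma, where 0.389% of all tested probe sets were called in either direction. At an unadjusted p under 0.05, 8 of the 44 (18.2%) and 11 of 49 small subunit probe sets (22.4%) read higher, and 0 lower. The shares were 7.76% higher and 5.79% lower over all tested probe sets. Among non-member probe sets with a mean of 2000 or more they were 18.7% and 0.985%. The median log2 difference of the 44 was 0.06, the same to 2 decimals as over the 49 tested small subunit probe sets. Rpl37 1438291_x_at, the gene's single probe set, read 469.7, 584.1 and 631 in mutant brains, against 274.6, 381.3 and 407.6 in wild-type brains. The groups did not overlap, and the log2 difference of 0.65 ± 0.15 (SE) did not pass the threshold (limma adjusted p = 0.115). Rpl7 1426163_x_at read 2537, 2595 and 2975 in mutant brains and 1289, 1818 and 2315 in wild-type brains, a log2 difference of 0.61 (limma adjusted p = 0.188). Wild-type array 1 was the lowest of the 6, and without it the difference was 0.39. The brighter Rpl7 probe sets, 1415979_x_at and 1426162_a_at, had log2 differences of 0.07 and 0.03 with overlapping groups.

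Of the 4 differences over 0.5, 1 came from a plain _at probe set, that of Rpl39, an X-linked gene for a very small protein at the exit tunnel of the ribosome. Rpl39 read 73.9, 69.5 and 88.0 in mutant brains, against 70.0, 46.3 and 16.5 in wild-type brains. The groups overlapped, wild-type array 3 was the lowest, and the log2 difference of 0.73 was 0.34 without that array (limma adjusted p = 0.329 with all arrays). Rpl27a 1437729_at, another dim probe set, had means of 75.8 ± 7.06 in mutant brains and 52.8 ± 12.8 in wild-type brains (SD, n = 3 each; log2 difference 0.43, limma adjusted p = 0.249). Rpl13a read 4861 ± 75.8 in mutant brains and 4335 ± 309 in wild-type brains on its brightest probe set (SD, n = 3 each), with a log2 difference of 0.17, or 0.09 after quantile normalization. Another bright Rpl13a probe set, 1417608_a_at, had -0.09.

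On the deposited scale most members with bright probe sets differed little, with narrow confidence intervals. The intervals do not cover the choice of scaling. How far readings this bright follow the amount of RNA was not tested. The 95% confidence interval of the log2 difference lay wholly between -0.25 and 0.25 for 53 of the 93 tested members (57.0%), against 12.6% of all tested probe sets. It lay between -0.5 and 0.5 for 81. The median residual SD of a member was 0.0594 log2 units, and that of all tested probe sets 0.135. At a mean intensity of 2000 or more, the interval lay between -0.25 and 0.25 for 78.3% of 60 members and 62.1% of 406 others. Median residual SDs in that class, set after the values were seen, were 0.0466 and 0.0619. On the brightest tested probe set of each gene, 37 of 46 genes lay above 0 (80.4%) and 43 within 0.25 of it. With 1 probe set per gene, 48.3% of all tested genes lay above 0. Among the 406 other probe sets with a mean of 2000 or more, 79.8% did. The share within 0.25 was not taken for other genes. After quantile normalization the brightest probe sets of Rpl7, Rpl11, Rpl38 and Rps28, which lie between 0.06 and 0.07 as deposited, lay between -0.03 and -0.01.

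The stalk of the large subunit, which recruits the translation factors, was represented by Rplp0 and Rplp2. Rplp0 read 4731, 4653 and 4619 in mutant brains and 4823, 4677 and 4326 in wild-type brains (log2 difference 0.02, 95% confidence interval -0.11 to 0.15, and -0.05 after quantile normalization). Rplp2 read 4603, 4516 and 4183 in mutant brains and 4471, 4380 and 4130 in wild-type brains (0.03, interval -0.10 to 0.17, and -0.05 after quantile normalization). The arrays overlapped in both genes. Rpsa, a small subunit protein also known as the laminin receptor precursor, had 3931 ± 112 in mutant brains and 3804 ± 61.7 in wild-type brains (SD, n = 3 each; log2 difference 0.05, interval -0.07 to 0.17, and -0.02 after quantile normalization).

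Rpl11, which can bind and inhibit Mdm2 when ribosome assembly fails, had a log2 difference of 0.06 (interval -0.06 to 0.19). Rps19, the member most often mutated in human Diamond-Blackfan anaemia, had 3078 ± 109 in mutant brains and 3150 ± 34.5 in wild-type brains (SD, n = 3 each), a log2 difference of -0.03 (interval -0.16 to 0.09), or -0.13 after quantile normalization. Rpl38, needed in mice for translation of certain Hox messages, had 6050.0 ± 147 in mutant brains and 5785 ± 193 in wild-type brains (SD, n = 3 each; log2 difference 0.06, interval -0.06 to 0.19). Rps6, the target of the S6 kinases, was read singly by 2 dimmer probe sets. The brighter gave 187.5, 193.3 and 203.9 in mutant brains and 165, 181.1 and 184.4 in wild-type brains, without overlap (log2 difference 0.13, interval -0.05 to 0.31). X-linked Rps4x had 4879 ± 166 in mutant brains and 4527 ± 286 in wild-type brains (SD, n = 3 each), without overlap between the groups, and a log2 difference of 0.11 (interval -0.04 to 0.25).

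In several genes with more than 1 tested probe set the readings disagreed. Rps18, a protein at the head of the small subunit, had log2 differences of 0.17, -0.08 and -0.12 on 3 bright probe sets. Its 1455572_x_at read 3696, 3723 and 4035 in mutant brains, against 3302, 3254 and 3614 in wild-type brains, while 1448739_x_at read 2849, 2608 and 2786 in mutant brains and 3161, 2824 and 3011 in wild-type brains. The groups did not overlap on the first, where quantile normalization gave 0.09 in place of 0.17, and overlapped on the second. Rps9 had 0.27 on 1434624_x_at, 0.08 on its brightest probe set and -0.08 on a dim one, and Rpl27 had 0.27, 0.21 and 0.02, the last on its brightest. Rpl41, which encodes one of the smallest known proteins, read 56.1, 61.7 and 56.7 in mutant brains, against 44.9, 44.5 and 45.0 in wild-type brains on the dim 1433530_at (log2 difference 0.29, limma adjusted p = 0.284). On its brightest probe set Rpl41 had 0.09, also without overlap. Among genes with at least 3 tested probe sets Rpl35 and Rps28 varied least, with differences of 0.02 to 0.08 over 5 tested probe sets and of 0.01 to 0.07 over 3. The closest replicates among the members were those of Rpl37a 1416217_a_at, with 4563, 4569 and 4563 in mutant brains and 4439, 4396 and 4460 in wild-type brains (log2 difference 0.04, interval -0.07 to 0.16).

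On the deposited scale no tested member had a log2 difference below -0.2. In 2 members every mutant array lay below every wild-type array, against 9.38% of all tested probe sets. Rps15 1416089_at read 3290, 3122 and 3311 in mutant brains, against 3464, 3489 and 3347 in wild-type brains (log2 difference -0.08, limma adjusted p = 0.544). After quantile normalization that difference was -0.18. The other Rps15 probe set had 0.06, with the mutant arrays above the wild-type ones. Rpl7l1 1426386_at read 207.3, 197.5 and 183.6 in mutant brains, against 215.6, 215.2 and 226.7 in wild-type brains (log2 difference -0.15, limma adjusted p = 0.429). The other probe sets of Rpl7l1, a paralogue of Rpl7, had -0.02 and 0.43. The brightest probe sets of Rps27, Rpl14 and Rps25 had log2 differences of -0.08, -0.06 and -0.05, all with overlapping groups and none called.

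In paralogue pairs with both copies tested, no copy passed the threshold. The pairs of Rpl3, Rpl10 and Rpl39 could not be compared, as at least 1 copy had no tested probe set. Rpl22 and its paralogue Rpl22l1, whose levels are known to be linked in mice, had log2 differences of -0.03 (interval -0.16 to 0.10) and -0.03 (interval -0.19 to 0.14) on their brightest probe sets. The other Rpl22 probe sets had 0.00 with overlapping groups and, on 1448398_s_at, 0.11. On that one every mutant array lay above every wild-type array, against 10.9% of all tested probe sets. Rpl22l1 read 2757, 2437 and 2355 in mutant brains and 2431, 2601 and 2645 in wild-type brains, with overlapping groups. Rps27l, a p53-induced relative of Rps27, had 0.03, -0.03 and -0.16 on its 3 probe sets. Rps27 was measured singly by a dim probe set with a wide interval of -0.61 to 0.45. Rps4l, a relative of Rps4x, had 350.6 ± 37.0 in mutant brains and 296 ± 39.3 in wild-type brains (SD, n = 3 each; log2 difference 0.24, limma adjusted p = 0.387). Rpl3l, the striated muscle paralogue of Rpl3, read 1.09, 2.33 and 8.48 in mutant brains and 0.70, 2.93 and 8.20 in wild-type brains, below the filter also on mutant array 3 with its muscle signal. Rpl39l, known from testis, read at most 7.90 in mutant and 9.84 in wild-type brains.

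The suffix of an Affymetrix probe set says how specific its probes are. A plain _at set is meant to match 1 transcript, _a_at sets match several transcripts of 1 gene, _s_at sets match transcripts of more than 1 gene, and some probes of _x_at sets can match unrelated sequences. Among tested members 38 were _x_at, and 14 of these had an unadjusted p under 0.05, all higher, against 25.2% higher and 3.75% lower among all 1627 tested _x_at probe sets. The groups did not overlap in 17 of the 38, all higher, against 28.9% higher and 5.41% lower among those 1627. Of the 38, 29 had a mean of 2000 or more, a limit set after the values were seen. In 51.7% of the 29 the groups did not overlap, and in 42.6% of 115 other bright _x_at probe sets, all higher. An unadjusted limma p under 0.05 was reached by 34.5% of the 29 and 26.1% of the 115, all higher. The same suffix held the call of Rps10, and 2.46% of all tested _x_at probe sets were called higher. The median log2 difference of _x_at probe sets was 0.08 for members (33 of 38 above 0) and 0.10 for the 1589 others (69.1% above 0). After quantile normalization these medians were 0.01 and 0.07, and that of the 55 members of other suffixes was -0.04. For _a_at it was 0.04 for 28 members and -0.02 for 3533 others, and for plain _at 0.02 for 24 members and -0.01 for 20139 others. The 3 members of suffix _s_at had a median of 0.08. At an unadjusted p under 0.05, 4 of the 24 plain _at members and 1 of the 28 _a_at members read higher and 0 lower. Those that read higher all had a mean intensity under 100. Among other tested probe sets 6.15% of _at sets read higher and 5.67% lower, and 8.04% and 6.65% of _a_at sets.

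In the 14 member genes with both kinds of tested probe set, the median of the _x_at sets lay above that of the gene's other sets in 10. The median of this within-gene gap was 0.07 log2 units. Among 958 other genes with both kinds, 68.9% had the _x_at sets higher, with a median gap of 0.10. Rps10 had the widest gap of the members, 0.47, followed by Rps24 with 0.33 and Rpl7 with 0.31. Rpl41 had the opposite order, with a gap of -0.20. Levels of other transcripts that _x_at probes may also match were not measured, and their part in these results was not tested.

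**Figure D3:**
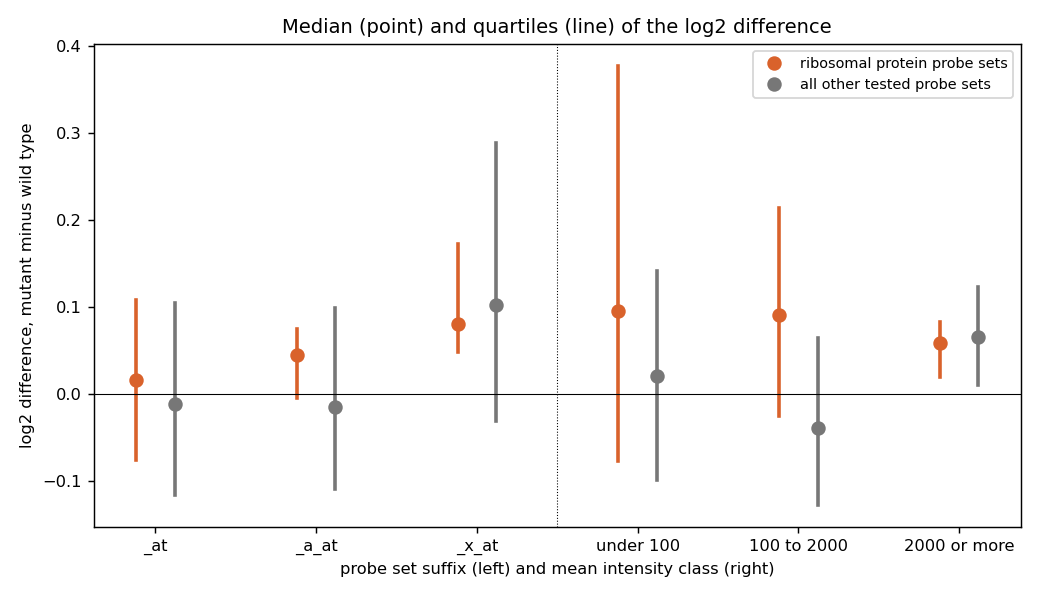
Median (points) and quartiles (lines) of the log2 difference for ribosomal protein probe sets (orange, left) and all other tested probe sets (grey, right), by suffix and by class of mean intensity; the 3 members of suffix _s_at are left out. At an intensity of 2000 or more the medians are 0.06 and 0.07, which became -0.02 and -0.01 under quantile normalization, and for _x_at they are 0.08 and 0.10.

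Members were also set beside other probe sets of like brightness, in classes of intensity set after the values were seen. A mean of 2000 or more was reached by 60 of the 93 tested members and by 406 other tested probe sets. In this class 81.7% of members lay above 0 with a median log2 difference of 0.06, and 79.8% of the others with a median of 0.07, while after quantile normalization both medians lay below 0, at -0.02 for members and -0.01 for the others. Every mutant array exceeded every wild-type array in 20 of the 60 members (33.3%) and in 30.8% of the 406 others. For bright probe sets of other suffixes than _x_at the median was 0.04 for 31 members and 0.06 for 291 others, and 0 of these members had an unadjusted p under 0.05, against 15.8% of the others higher and 1.37% lower. Between 100 and 2000 the medians were 0.09 for 20 members and -0.04 for 11419 others, and under 100 they were 0.10 for 13 members and 0.02 for 15104 others. The classes below 2000 were not split by suffix or taken through quantile normalization. Members between 100 and 2000 included _x_at probe sets, the called one of Rps10 among them, and the part of the suffix in that median was not tested.

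**Figure D4:**
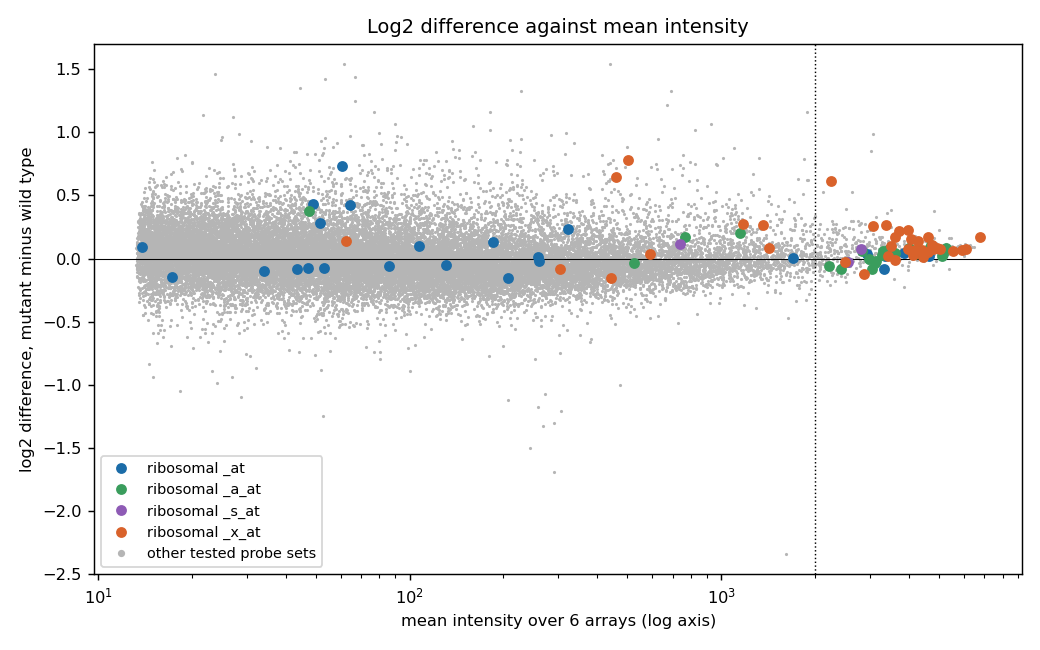
Log2 difference (mutant minus wild type) against mean intensity over the 6 arrays (log axis) for the 93 tested ribosomal protein probe sets, coloured by suffix, and all other tested probe sets in grey; the dotted line stands at 2000. Of the members, 60 lie right of the line, most of them between -0.1 and 0.3 and close to the grey points around them.

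Array by array, the median deviation of the 93 members from each probe set's own mean was 0.04, -0.00 and 0.05 log2 units on mutant arrays 1 to 3, against -0.02, -0.06 and -0.00 on wild-type arrays 1 to 3. Mutant array 2 lay just above wild-type array 3, at -0.0016 against -0.0044. For members of suffix _x_at the values were 0.06, 0.04 and 0.06 on mutant arrays and -0.05, -0.08 and -0.02 on wild-type arrays. For the 55 other members they were 0.03, -0.01 and 0.05 on mutant arrays and -0.01, -0.05 and 0.01 on wild-type arrays, which overlap. The pooled SD within a group was 0.0283 log2 units. Leaving out each array in turn gave a median log2 difference of the members between 0.04 and 0.07.

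**Figure D5:**
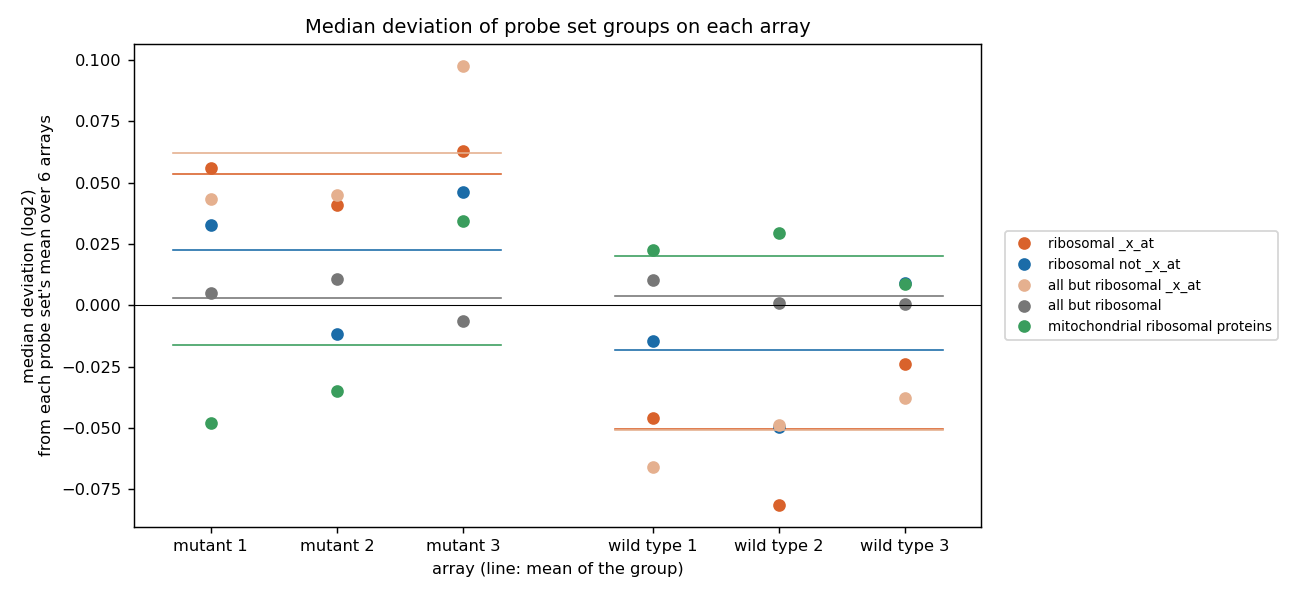
Median deviation (log2 units) on each array for 5 groups of tested probe sets, with mutant arrays on the left and wild-type arrays on the right; lines mark group means. The _x_at probe sets, ribosomal or not, lie above 0 on the 3 mutant arrays and below 0 on the 3 wild-type arrays, while the other ribosomal protein probe sets overlap between the groups.

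Other parts of the translation machinery were described by lists chosen with earlier results of these data known. The mitochondrial ribosomal proteins, which build the separate ribosome of that organelle, had 141 tested probe sets of 76 genes. Of these, 0 were called by limma, with an unadjusted p under 0.05 in 9 that read higher and 12 that read lower, and the median log2 difference was -0.04 (39.0% above 0). The largest differences were those of Mrpl28 (0.67) and Mrpl11 (0.44), both on _x_at probe sets and not called. Of 131 probe sets of initiation and elongation factor genes, 1 was called higher and 0 lower. It belonged to Eef1e1, which encodes an accessory protein of the aminoacyl-tRNA synthetase complex and not an elongation factor. Eef1e1 read 980.6, 1061 and 1114 in mutant brains, against 766.5, 795.8 and 749.7 in wild-type brains (log2 difference 0.44, limma adjusted p = 0.0403). The median of that list was -0.02.

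Of 46 probe sets for ribosome assembly and RNA polymerase I, 0 were called by limma. An unadjusted p under 0.05 was reached by 5 that read higher and 5 that read lower, and the median was -0.00. Ncl, the nucleolar protein nucleolin, had -0.48 on a dim probe set and Nmd3, an export adaptor of the large subunit, 0.43. Of 22 probe sets for regulators of ribosomal protein translation 0 were called by limma and 0 had an unadjusted p under 0.05, with the proto-oncogene Mycn at 0.30 on one probe set and -0.24 on another. Of 19 probe sets for p53 targets, which rise when ribosome assembly fails, 0 were called by limma. Sesn2 (0.40) and Mdm2 (-0.25) had an unadjusted p under 0.05, and the median was 0.01. Fau, a ribosomal protein gene outside the rule, had 2639 ± 72.8 in mutant brains and 2788 ± 91.9 in wild-type brains (SD, n = 3 each; log2 difference -0.08). The 102 tested probe sets annotated to several genes with a ribosomal protein among them had a median of 0.06, with 80.4% above 0 and 1 called higher.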

How the data were processed

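Biotin-labelled total RNA was hybridised to Affymetrix arrays, per the labels' protocols. The deposited values are intensities made with MAS5, per the submitters' processing notes, which name no version. In the deposited table the mean of each array without its lowest and highest 2% was 100, so the authors had scaled the arrays and no further normalization was applied.

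Of 45101 probe sets, 64 controls were left out and 45037 fitted in R 4.3.3 with limma 3.58.1 (lmFit, eBayes with a variance trend) on log2(intensity + 16), two-sided. Fold changes on this scale understate those of dim probe sets. Adjustment covered probe sets above the 40th percentile of mean signal. The fit was also run on simulated data with independent noise in each probe set. Those data held no shifts shared between probe sets, and no result given here rests on that run. Members' symbols all matched a RefSeq table of GRCm38.p6 by Entrez ID (49 of 49).

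Members and lists were chosen with earlier results of these data known. Named were members past the threshold, the 8 highest and 8 lowest on each gene's brightest probe set, a fixed set of genes, and the 3 widest and 3 narrowest genes over at least 3 probe sets. Rps24 and other members with an unadjusted p under 0.05 were added after their values were seen. Alternatives covered offset, filter, normalization, variance trend, array weights, replicate block, each array left out and the probe sets used. With 3 arrays a group, the number of arrays limits the precision.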

Additional observations from a re-analysis of the deposited data

Results flagged for a closer look

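Control probe sets for 18S ribosomal RNA, the RNA of the small subunit, were left out of the comparison and read higher on the mutant arrays. The mean over the 3 control probe sets gave a log2 difference of 0.27 (log2 intensity + 16), without overlap between the groups, and the exact two-sided permutation p of 0.1 is the smallest possible. With an offset of 1 or 64 in place of 16 the difference was 0.43 or 0.12. The control for the 3′ part read 44.3, 49.9 and 50.3 on mutant arrays, against 33.5, 33.5 and 37.8 on wild-type arrays. The middle control read 22.5, 21.8 and 28.1 on mutant arrays and 17.5, 15.3 and 18.4 on wild-type arrays. The 5′ control overlapped, with 19.0, 12.5 and 18.6 on mutant arrays and 9.98, 14.0 and 14.1 on wild-type arrays. All 3 controls were dim, and median intensities were 24.4 to 25.6 on mutant and 23.2 to 23.7 on wild-type arrays. Tested non-member probe sets with a mean under 100 had a median log2 difference of 0.02. How far the control readings follow the amount of 18S ribosomal RNA was not tested. The 93 ribosomal protein probe sets had a median log2 difference of 0.06 on the same arrays. The relation between these differences was not tested.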

How the results depend on the processing

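Limits were set by 3 arrays a group, by MAS5 noise in dim probe sets and by the authors' scaling, which fixes each array's mean. The call of Rps10 1439374_x_at kept its direction in all 15 alternatives and passed in 8 of them, with adjusted p from 0.0126 to 0.132. It was lost without the variance trend (adjusted p = 0.0885), and the count of called members was then 0, as it was, in a range of 0 to 0, with each array left out. With 1 probe set per gene the count was 0 too, but that fit kept each gene's brightest and left out the called Rps10 probe set. With the replicate number as a block, 2 members were called, Rps10 and Rpl37 (0.65, adjusted p = 0.0150), and 220 probe sets in all. Deviations of same-numbered arrays correlated at 0.186, 0.134 and 0.0917, so the numbers were not taken as pairs, although each array correlated best with its own number. The count over all probe sets, 105, was 181 with an offset of 1, 64 with an offset of 64, 52 without a filter, 167 with the 60th percentile, 56 with median centring, 0 without the trend, 13 with 1 probe set per gene and 0 to 34 with each array left out. The members' median log2 difference of 0.0617 was 0.0076 with median centring and -0.012 with quantile normalization, and 0.042 to 0.069 with each array left out. It was 0.0589 at an intensity of 2000 or more, an alternative added after the data were seen, and 0.0360 without _x_at probe sets. Small differences changed sign. Quantile normalization gave Rplp2 -0.051, Rplp0 -0.048, Rpl11 -0.029, Rpsa -0.021, Rpl35 -0.018, Rpl38 -0.016, Rps28 -0.013, the brightest Rps10 probe set -0.012, the brightest Rpl7 probe set -0.0075 and Rpl7l1 0.0020. Median centring lowers every difference by the same amount (the median of all tested probe sets was -0.061 in place of -0.0065), and so gave Rplp0 -0.034, Rps27l -0.020, Rplp2 -0.019, Rpsa -0.0074 and Rpl35 -0.0024. With each array left out, the sign also turned for Rps27, with a range of -0.27 to 0.15, Rps25, with a range of -0.14 to 0.047, Rpl7l1, with a range of -0.099 to 0.051, Rpl22l1, with a range of -0.093 to 0.019, and Rplp0, with a range of -0.025 to 0.053. The 18S control difference ranged from 0.22 to 0.30 with each array left out and was 0.22 and 0.21 under quantile normalization and median centring, but 0.43 with an offset of 1 and 0.12 with an offset of 64. Of 629 values of 40 named probe sets under the alternatives, 597 kept direction and side of the threshold, 24 changed sign (5 of them by the common shift of median centring), 7 lost the call (all Rps10 1439374_x_at) and 1 gained it (Rpl37).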
